A study of Tachysurus ussuriensis with 12 samples.

Results

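The comparison described here was the change between 0 h and 24 h of acute salinity stress that gill and kidney of the Ussuri catfish had in common. It used all 12 libraries of the 12 in the series, which were taken by their tissue and time labels and not by any measured value. This fish, Tachysurus ussuriensis, is a freshwater bagrid catfish that the series title names Pseudobagras ussuriensis. The groups were gill 0 h, gill 24 h, kidney 0 h and kidney 24 h, with 3 libraries each, so that 6 libraries of 0 h were set against 6 of 24 h with both tissues on each side. All groups held whole-tissue total RNA of fish under 1 species label, and no strain, genotype, age or salinity is given in the labels. The labels name no group kept for 24 h without salinity stress, so salinity and other changes over 24 h cannot be told apart. Whether the libraries of a group represent different fish is not stated, and p-values therefore speak only for the variation among these libraries, part of which may be technical.

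Fish keep their ion and water balance chiefly through the gill and the kidney. In fresh water, ion-transporting cells of the gill take up salts from the water and the kidney excretes a dilute urine and recovers salts from it. When the water becomes saltier both organs have to shift towards less uptake and less water loss, and cells in both meet a change in the osmolality of the blood. A change found in both tissues can also come from signals that reach every organ through the blood, such as stress hormones.

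Each tested item was an assembled transcript, identified by an ID in the form written by the assembler Trinity with a number from 1 to 4 added at its end. The files do not pair these IDs with gene names or sequences, so no function is given to any transcript, no tissue marker could be checked and no sequence is shown. At most 2 rising and 2 falling IDs are named for that reason. Each Trinity gene had 1 row per ID number. The 23438 pairs of tested rows that shared a Trinity gene but not the ID number had a median correlation of -0.03 over the 12 libraries, and such rows were treated as unrelated.

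Levels are in FPKM, which scales fragments by transcript length and by the mapped fragments of the library. The 12 libraries had FPKM totals of 631998 to 714003, and 73001 to 79053 of 84875 transcripts were above 0. Read totals per library are unknown. Libraries of 1 group correlated at r = 0.897 to 0.913 over tested transcripts on the log2(FPKM + 1) scale, leaving out kidney 0 h replicate 2. That library differed from all others. Its correlations with the remaining kidney libraries were 0.816 to 0.838, its median level was 1.26 FPKM against 1.85 to 2.22 in the other 11, and its deviations from its group's mean had an SD of 0.555 on the log2 scale against 0.351 to 0.42. The main counts are therefore given with and without it.

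The common change was the mean of the gill change and the kidney change on the log2(FPKM + 1) scale. It was tested in a single limma fit with 4 group means, with calls made at an adjusted p below 0.05 (Benjamini-Hochberg, over all tested transcripts). Of 75716 tested transcripts, 1395 had a common change (1.84%), 927 higher at 24 h (1.22%) and 468 lower (0.618%). In whole tissue, fewer cells of a type and less RNA per cell cannot be told apart in any of these changes. The median size among those called was 0.98 on the log2 scale, with a median SE of 0.18, against a median size of 0.22 over all tested transcripts. A change of at least 1 was reached by 657 transcripts (0.868%), made up of 393 of the 927 transcripts that rose and 264 of the 468 that fell. A change of at least 2 was reached by 29 that rose and 47 that fell.

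Without kidney 0 h replicate 2 the same test called 3842 transcripts (5.07%), 2315 higher (3.06%) and 1527 lower (2.02%). Among them were 1381 of the 1395, and all 1381 kept their direction. The 2461 transcripts gained had smaller changes, with a median of 0.55 without that library and 0.44 with it. Their median SE was 0.108 without it and 0.178 with it. For these 2461, kidney 0 h replicate 2 lay a median of 0.85 from the mean of the other 2 kidney libraries of 0 h, which lay 0.15 apart from each other. In 1971 of them (80.1%) it lay outside the range of those 2 libraries on the side of the 24 h level, against 47.3% of all tested transcripts. The choice of gained transcripts favours such values, so they are a description only. Library weights, which gave kidney 0 h replicate 2 a weight of 0.172 and the others 0.901 to 1.46, called 3741 transcripts.

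The number called also moved by more than 1.5 times without each of 8 further libraries. Leaving out gill 0 h replicate 1 gave 561 calls, and replicate 3 gave 538. In gill 24 h the calls numbered 590 after removal of replicate 1, 487 after replicate 2 and 750 after replicate 3. For kidney 24 h the corresponding numbers were 738, 515 and 631. Removal of gill 0 h replicate 2 gave 1555, while kidney 0 h replicates 1 and 3 gave 1135 and 1100. Leaving out a library of 24 h thus lowered the number in each of the 6 cases. Among libraries of 0 h, removal of replicates 1 and 3 of either tissue also lowered it. Removal of replicate 2 raised it in both tissues, far more in kidney.

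**Figure D1:**
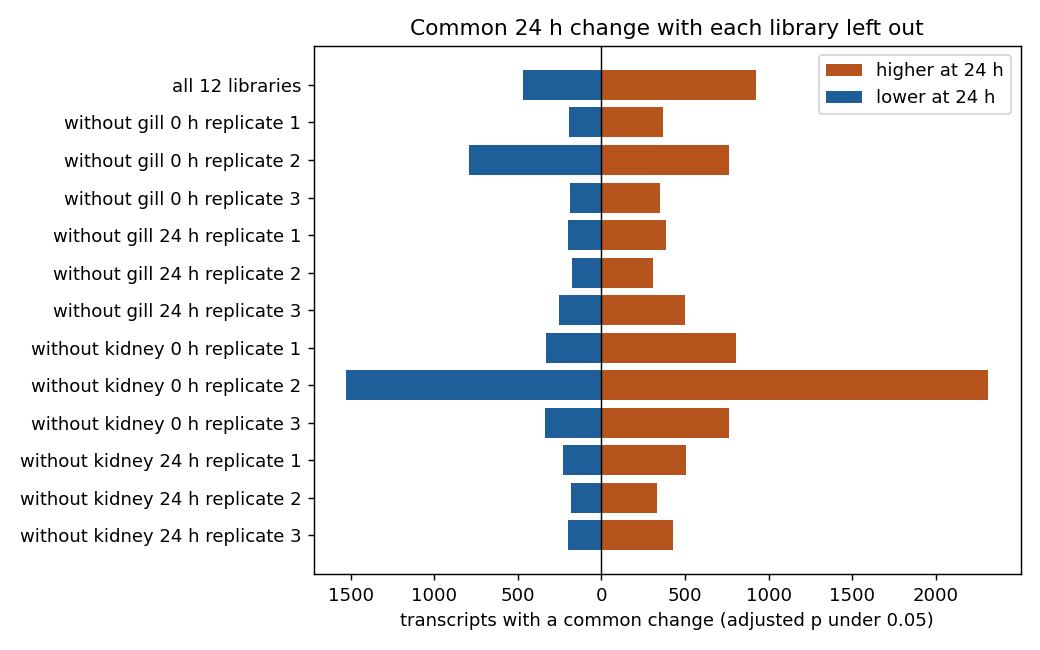
Number of transcripts with a common 24 h change (x axis; higher at 24 h to the right, lower to the left) with all 12 libraries and with each library left out (rows). The bars run from 487 transcripts in all without gill 24 h replicate 2 to 3842 without kidney 0 h replicate 2, against 1395 with all 12 libraries.

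The excess of rising over falling transcripts depended on the scaling between libraries. With FPKM as deposited 66.5% of those called rose, and tested transcripts as a whole had a median change of 0.07 (log2). Median-ratio scaling gave 736 rises and 877 falls (45.6% rising). Quantile normalization gave 899 and 694 (56.4%), and equal library totals gave 964 and 434 (69%). Without gill 0 h replicate 2, 766 rose and 789 fell (49.3%). Which direction held more transcripts thus changed with the scaling and with 1 library.

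The split into rises and falls is given by ID number as a description, with no test of the difference. Of those tested, 20472 ended in 1, 17437 in 2, 18901 in 3 and 18906 in 4, and 2.53%, 1.94%, 1.48% and 1.38% were called. Transcripts ending in 1 gave 465 rises and 52 falls, and those ending in 2 gave 148 and 191. Those ending in 3 gave 166 and 113, and those ending in 4 gave 148 and 112. Without kidney 0 h replicate 2 the numbers 1 to 4 gave 921 and 201, 439 and 500, 572 and 411, and 383 and 415, so that falls outnumbered rises for the number 4. The shares called in that fit were 5.48%, 5.39%, 5.2% and 4.22%. Over all tested transcripts the median change was 0.23 for the number 1 and -0.01, 0.02 and 0.02 for the numbers 2, 3 and 4. The mean level of transcripts ending in 1 was highest in kidney 24 h replicates 3 and 2 and gill 24 h replicate 2, at 2.31, 2.25 and 2.08 on the log2(FPKM + 1) scale, so its 3 leading libraries were all of 24 h. With every library centred on its median within each ID number, transcripts ending in 1 gave 182 rises and 175 falls, those ending in 3 gave 133 and 143, those ending in 4 gave 136 and 160, and 611 rose and 699 fell in all (46.6% rising). With a term in the fit for the 3 leading libraries of each number, 564 transcripts were called, 292 higher and 272 lower, 501 of them among the 1395. Under that term transcripts ending in 1 gave 85 rises and 12 falls, those ending in 3 gave 72 and 89 and those ending in 4 gave 66 and 75. The excess of rises among IDs ending in 3 and 4 was thus turned by both adjustments. Centring by its making leaves median changes near none, here -0.02, -0.01, -0.01 and -0.02 for the numbers 1 to 4. The leading libraries were picked from these same values, and for the number 1 their term overlaps with time. For the number 2 they were gill 0 h replicates 1 and 3 and gill 24 h replicate 3. For the number 3 they were kidney 24 h replicates 1 and 3 and kidney 0 h replicate 1. For the number 4 they were gill 24 h replicates 1 and 2 and gill 0 h replicate 2. Their term thus overlaps with time in part for these numbers too. Neither adjustment can therefore decide which direction held more transcripts.

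**Figure D2:**
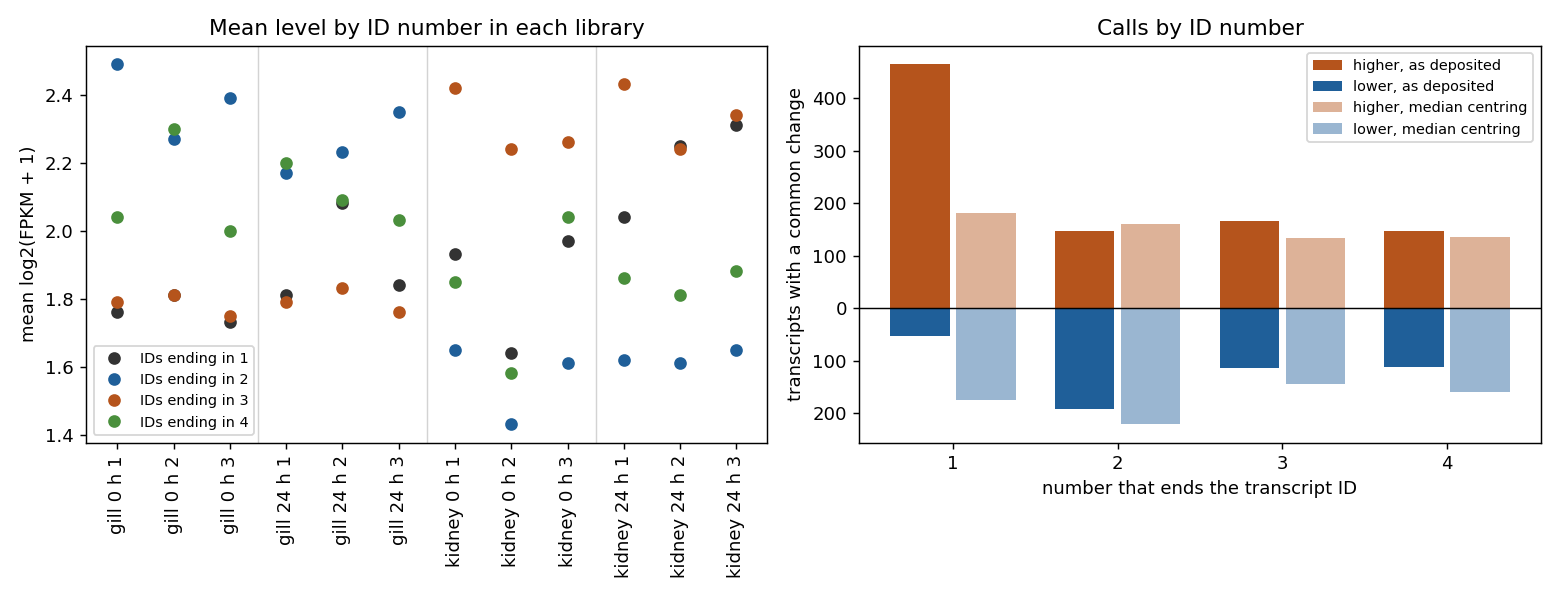
Left, mean log2(FPKM + 1) of tested transcripts in each library, by the number that ends their ID; right, transcripts with a common change by that number, higher at 24 h above the line and lower below it, with FPKM as deposited (dark) and after median centring of each library within each number (pale). IDs ending in 1 gave 465 rises and 52 falls as deposited and 182 and 175 after centring.

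Called transcripts changed in the same direction in both tissues in 1298 of 1395 cases (93%), against 56.1% of all tested transcripts. The average used for the call contains both changes, so this share describes those called and tests nothing. In 795 of the 1395 (57%) the smaller of the 2 tissue changes had the same sign as the larger and at least 50% of its size. Over all tested transcripts this held for 23.7%. In 288 of the 1395 the smaller change was under 25% of the larger or of opposite sign, so that the average rested mainly on 1 tissue. Of all 75716 tested, 45940 had such a smaller change. The choice by the average shapes these shares too, so they are a description only. The 288 included 52 transcripts with a change of exactly 0 in 1 tissue. Of those that rose, 9 were listed at 0 in all 6 gill libraries and 8 in all 6 kidney libraries. Of those that fell, 5 were listed at 0 in all 6 gill libraries and 25 in all 6 kidney libraries. Without kidney 0 h replicate 2, 3615 of 3842 (94.1%) had 1 direction in both tissues, 2077 (54.1%) had a smaller change of at least 50% of the larger, and 800 had one under 25% or of opposite sign.

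The median change of the 927 transcripts that rose was 0.83 in gill and 1.00 in kidney. That of the 468 that fell was -1.25 in gill and -0.93 in kidney. Falls called without kidney 0 h replicate 2 (1527) had the reverse order, with medians of -0.67 in gill and -0.86 in kidney. Rises called without it (2315) had 0.51 and 0.65. These are other sets of transcripts, so a change of set and a change of fit cannot be told apart here. Tested on its own in the fit of all 12 libraries, the gill change was called in 642 transcripts (0.848%) and the kidney change in 624 (0.824%). Of the 1395 with a common change, 65 were called in both tissues, 330 in gill alone and 356 in kidney alone. The remaining 644 (46.2%) were called in neither tissue and came from the average only. Of the 3842 called without kidney 0 h replicate 2, 280 were called in both tissues, 837 in gill alone, 1238 in kidney alone and 1487 (38.7%) in neither. The difference between the kidney and the gill change was called in 38 of all tested transcripts (0.0502%), and 32 of these were among the 1395. A change in 1 tissue alone weighs equally in the average and in the difference, so this overlap is largely built in. All 40 transcripts called as rising in each tissue and all 25 called as falling in each were among the 1395. The average contains both changes, so a transcript called in each tissue with 1 sign is bound to be among them. This shows nothing further.

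**Figure D3:**
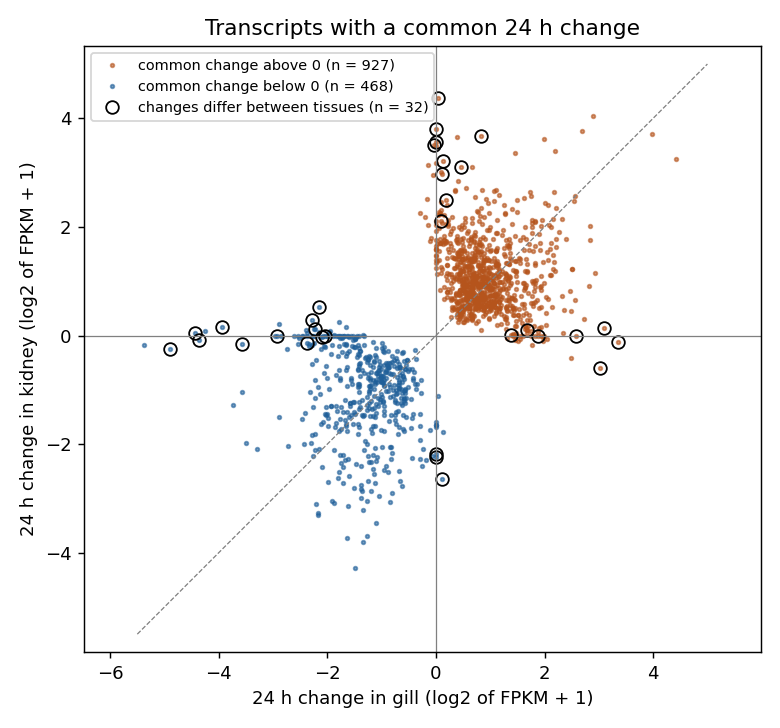
Change from 0 h to 24 h in gill (x axis) and in kidney (y axis), both on the log2(FPKM + 1) scale, for the 1395 transcripts with a common change; each point is a transcript, the dashed line marks equal changes and open circles mark the 32 whose changes differed between the tissues. Most points lie in the quadrants where both tissues rose or both fell, and the circled ones lie along the axes.

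Transcripts chosen in 1 tissue were then measured in the other, with which they share no library. Of the 314 that rose in gill, 230 (73.2%) had a kidney change above 0, against 59.7% of all tested transcripts, and 17.8% rose by at least 1 on the log2 scale in kidney, against 4.19%. Of the 328 that fell in gill, 171 (52.1%) had a kidney change below 0, against 38%, and 11.3% fell by at least 1, against 1.65%. Of the 472 that rose in kidney, 73.3% had a gill change above 0, against 52.4%, and 13.1% rose by at least 1, against 2.13%. Of the 152 that fell in kidney, 77% had a gill change below 0, against 46.5%, and 40.1% fell by at least 1, against 2.86%. Moves of at least 1 in the opposite direction were seen in at most 0.658% of any of these 4 sets, against 1.65% to 4.19% of all tested transcripts. A call in 1 tissue favours transcripts of small spread over both tissues, which can itself make large opposite moves rarer. The part of this choice was not tested. When kidney 0 h replicate 2 was left out the sets grew to 928, 720, 1265 and 808, and 76.7%, 64.2%, 73.2% and 73.6% had the same direction in the other tissue, against 53.2%, 44.3%, 52.4% and 46.5% of all tested transcripts. The share in the same direction was above that of all tested transcripts in all 4 sets of both fits. The sets were not split by ID number. Over all tested transcripts the median common change was 0.23 for the number 1 and -0.01, 0.02 and 0.02 for the numbers 2, 3 and 4. The part of the ID number in these shares was not tested. The same spread estimate served both tissues, and transcripts are not independent, so no p is given. The labels also do not say whether gill and kidney libraries of the same number came from 1 fish. Deviations of libraries with the same replicate number in the labels correlated at 0.137, 0.111 and 0.109 at 24 h and at 0.0915, -0.00854 and 0.0345 at 0 h. The library names give gill and kidney replicate 3 of 24 h different numbers. The part of deviations shared by both tissues of a fish in these shares was not tested.

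A stricter test asked for a change in each tissue, taking for each transcript the larger of its 2 p-values and adjusting these over all tested transcripts. It called 8 transcripts (0.0106%), 5 rising and 3 falling, with the smaller tissue change between 0.86 and 3.72 on the log2 scale. All 8 were among the 1395, which follows from the test, since the average contains both changes. Without kidney 0 h replicate 2 it called 16 (0.0211%), 11 rising and 5 falling, 7 of them among the 8. It called 1 to 4 transcripts without any 1 of 10 other libraries and 7 without kidney 0 h replicate 3. By ID number, 2 of the 8 ended in 1, 4 in 2, 1 in 3 and 1 in 4, beside 20472, 17437, 18901 and 18906 tested. The number with a larger p under 0.05 and 1 sign, unadjusted, was 1695.

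Time groups did not overlap in FPKM in either tissue, with 24 h above 0 h, for 655 of the 927 transcripts that rose (70.7%), against 2.59% of all tested transcripts. With 24 h below 0 h this held for 278 of the 468 that fell (59.4%), against 0.96%. Across all tested transcripts the time groups parted in opposite directions in the 2 tissues for 557 (0.736%), beside 1959 that parted upwards in both and 727 that parted downwards in both. The called transcripts were chosen on the same libraries and times, so their shares describe the choice and show nothing further.

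Called in both fits with no overlap in either tissue were 651 rising and 277 falling transcripts, and the named ones among them have the largest value of the smaller tissue change. The choice of transcripts whose groups do not overlap fixes the exact permutation test, with time labels exchanged within each tissue over 400 arrangements, at its smallest two-sided value of 0.005 for each of the 4. TRINITY_DN22569_c0_g1_i7_1 had the largest common rise of all tested transcripts. It stood at 2.27, 1.96 and 5.45 FPKM in gill at 0 h and at 45.2, 78.2 and 65.8 at 24 h. In kidney it stood at 3.61, 2.37 and 12 FPKM at 0 h and at 53.1, 86.8 and 95.5 at 24 h. All 6 libraries of 24 h were above all 6 of 0 h, and kidney 0 h replicate 3 was the highest of the latter. The mean rose 19.5-fold in gill, from 3.23 ± 1.93 to 63.0 ± 16.7 FPKM, and 13.1-fold in kidney, from 6.0 ± 5.24 to 78.5 ± 22.4 (SD, n = 3 each). The log2 common change was 3.85 (SE 0.33; limma adjusted p = 0.000631), and 3.65 without kidney 0 h replicate 2 (SE 0.32; limma adjusted p = 0.000858). It was among the 8 called by the stricter test (limma adjusted p = 0.0425), a call lost without kidney 0 h replicate 2 (0.0983). Its ID ends in 1, and centring within ID numbers gave a common change of 3.60 (limma adjusted p = 0.000462).

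TRINITY_DN20352_c0_g1_i1_3 rose by nearly the same amount on average, from a higher level. It stood at 14.3, 8.82 and 18.1 FPKM in gill at 0 h and at 305, 380 and 240 at 24 h. In kidney it stood at 28.8, 26.5 and 24.0 FPKM at 0 h and at 214, 344 and 238 at 24 h. The lowest library of 24 h was above every library of 0 h in both tissues, and kidney exceeded gill at 0 h in each library. Its common change was 3.84 (SE 0.18; limma adjusted p = 8.33e-06), with 4.42 in gill and 3.25 in kidney, and it was 3.84 without kidney 0 h replicate 2 (limma adjusted p = 4.32e-05). The difference between its changes, kidney minus gill, was -1.17 and was not called (SE 0.36; limma adjusted p = 0.35). It passed the stricter test with all 12 libraries (limma adjusted p = 0.00256) and without kidney 0 h replicate 2 (0.00923).

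TRINITY_DN26563_c1_g1_i1_3 fell from a high level. It stood at 1367, 512 and 2627 FPKM in gill at 0 h and at 272, 237 and 281 at 24 h. In kidney it stood at 906, 541 and 584 FPKM at 0 h and at 94.3, 68.8 and 66.8 at 24 h. The 3 gill libraries of 0 h were spread widely while those of 24 h lay close together, and the time groups did not overlap in either tissue. The mean fell from 1502 ± 1064 to 264 ± 23.1 FPKM in gill and from 677 ± 200 to 76.6 ± 15.3 in kidney (SD, n = 3 each). Its common change was -2.66 (SE 0.31; limma adjusted p = 0.00304), with -2.22 in gill and -3.11 in kidney, and -2.73 without kidney 0 h replicate 2 (limma adjusted p = 0.0039). Its level was higher in gill than in kidney by 1.34 on the log2 scale on average over both times (limma adjusted p = 0.00438). The stricter test did not call it (limma adjusted p = 0.426).

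TRINITY_DN28350_c3_g4_i1_2 fell by similar amounts in both tissues. It stood at 63.1, 38.8 and 122 FPKM in gill at 0 h and at 12.7, 14.0 and 12.9 at 24 h. In kidney it stood at 40.1, 37.5 and 21.2 FPKM at 0 h and at 7.68, 3.18 and 8.70 at 24 h. All libraries of 24 h were below all of 0 h, and the gill libraries of 24 h again lay close together. Its common change was -2.23 (SE 0.29; limma adjusted p = 0.00438), with -2.26 in gill and -2.21 in kidney, and -2.18 without kidney 0 h replicate 2 (limma adjusted p = 0.00626). The difference between its changes was 0.04 (SE 0.58; limma adjusted p = 0.992), and the stricter test did not call it (limma adjusted p = 0.327).

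**Figure D4:**
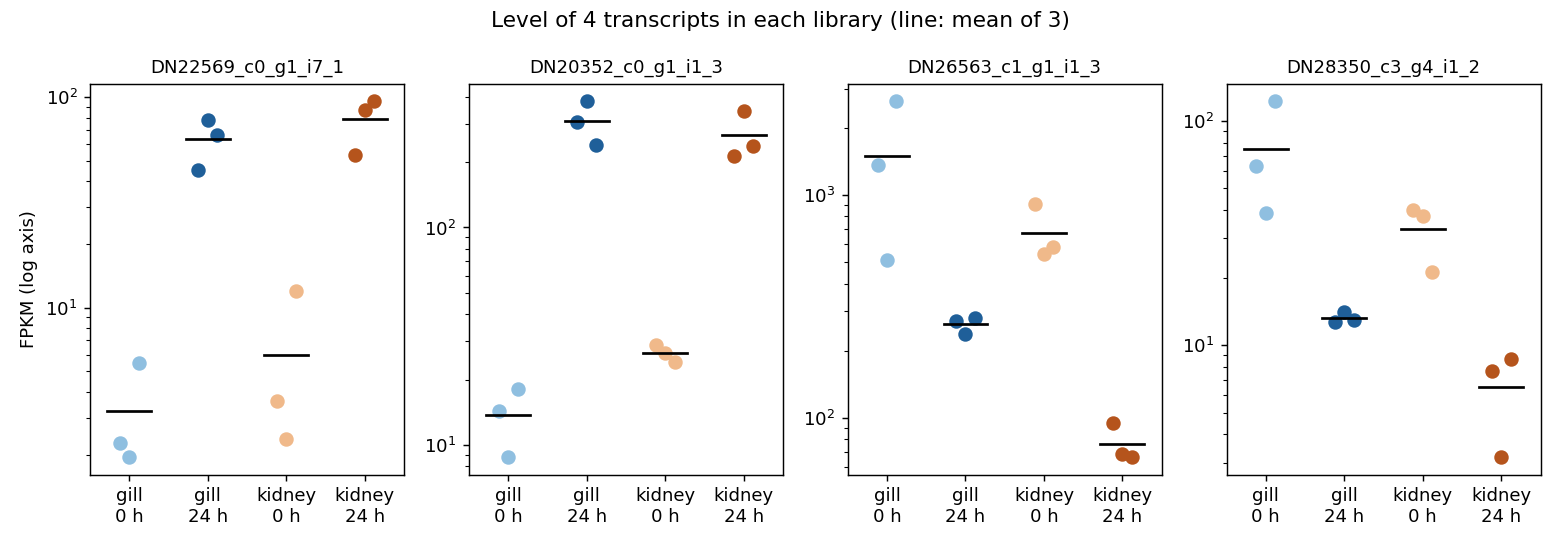
FPKM (log axis) of the 4 named transcripts in each of the 12 libraries, by tissue and time, with a line at the mean of 3 libraries. In each panel and each tissue the libraries of 24 h lie wholly above (first 2 panels) or wholly below (last 2 panels) those of 0 h.

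The split of called transcripts into rises and falls differed between those that prefer gill and those that prefer kidney, and is given as a description. Preference was set by the average over both times of gill minus kidney, a comparison orthogonal to the common change in this balanced design, at an adjusted p under 0.05 and a difference of at least 1. Both comparisons share the spread estimate of each transcript. The choice by preference thus favours transcripts of small spread, in which a common change is also called more easily, so the shares called are a description only. Of 10686 gill-preferring transcripts 3.24% had a common change, 135 rising and 211 falling. Of 7929 kidney-preferring transcripts 2.33% had one, 163 rising and 22 falling. Of the 57101 others 1.51% had one, 629 rising and 235 falling. Over all tested members, called or not, the median common change was -0.02 in gill-preferring, 0.10 in kidney-preferring and 0.08 in the other transcripts. No test of the difference between these classes was made. Tissue level also went with the ID number. The mean log2(FPKM + 1) for the number 2 was 2.17 to 2.49 in gill libraries and 1.43 to 1.65 in kidney libraries. For the number 3 it was 1.75 to 1.83 and 2.24 to 2.43. The number 2 gave 148 rises and 191 falls, and the number 3 gave 166 and 113. The part of the ID number in the split by preference was not tested.

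In gill-preferring transcripts falls outnumbered rises under each scaling tried and without each library in turn, with rises making up 19.1% to 43.3% of those called. The classes were kept from the fit of all 12 libraries, and without a library the design is no longer balanced. In kidney-preferring transcripts rises outnumbered falls in each of these settings, but less so under median-ratio scaling, at 145 against 71, and at 238 against 171 when kidney 0 h replicate 2 was left out. Among the others the balance turned with median-ratio scaling (474 rising, 500 falling) and with centring within ID numbers (374 and 376). The changes were larger in the preferred tissue: gill-preferring transcripts that fell had a median change of -1.42 in gill and -0.69 in kidney, and kidney-preferring ones that rose had 1.62 in kidney and 0.61 in gill. The fit without kidney 0 h replicate 2 called other sets of transcripts. Its 408 falling gill-preferring transcripts had medians of -1.06 in gill and -0.77 in kidney. Its 238 rising kidney-preferring ones had 1.26 in kidney and 0.54 in gill. Levels near 0 in the other tissue limit the change that can be seen there on this scale.

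The share with a common change rose with the level of the transcript. It was 0.82% for a mean below 1 FPKM, 1.07% from 1 to 3, 2.1% from 3 to 10, 3.4% from 10 to 30, 7.57% from 30 to 100 and 8.92% at 100 FPKM or more, where 56 of 628 were called. The median size of the called changes was 0.87 to 1.03 in all 6 classes. The median residual SD fell from 0.41 and 0.44 in the lowest 2 classes to 0.25 in the highest, so precision moved with the level, and its part in the rising share was not tested. Without kidney 0 h replicate 2 the shares ran from 1.4% in the lowest class to 22.2% from 30 to 100 FPKM and 21.5% at 100 or more.

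**Figure D5:**
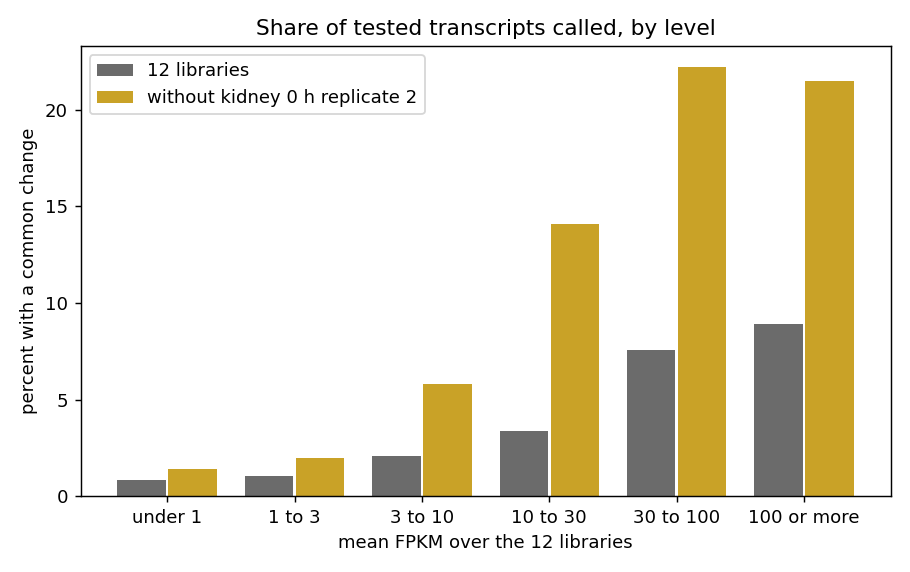
Percentage of tested transcripts with a common change (y axis) by mean FPKM over the 12 libraries (x axis), with all 12 libraries and without kidney 0 h replicate 2. The share is 0.82% in the lowest and 8.92% in the highest class with 12 libraries, and 1.4% and 21.5% with 11.

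The called transcripts made up a small part of the FPKM total. Those that rose held 1.53% to 1.55% of it in gill at 0 h and 3.04% to 3.22% at 24 h, and 1.78% to 2.73% in kidney at 0 h and 4.37% to 4.97% at 24 h. Those that fell held 2.77% to 4.37% in gill at 0 h and 1.32% to 1.55% at 24 h, and 1.52% to 2.99% in kidney at 0 h and 0.77% to 0.816% at 24 h. These shares follow from the choice of the transcripts and describe only how much of the measured RNA they make up. Kidney 0 h replicate 2 was the lowest of its group for both sets.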

How the data were processed

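Total RNA of gill and kidney, extracted with TRIzol per the labels' protocols, was sequenced in 12 libraries. Per the file headers, the authors deposited FPKM values of 84875 assembled transcripts with a column for each library. The submitters' processing notes name the read trimmer Trimmomatic; no aligner, assembly setting or counting program is given in the sources used here. Columns were matched to samples by the library names in the labels.

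FPKM values are not counts, so linear models were fitted with limma 3.58.1 (R 4.3.3; moderated by eBayes with a trend in the variance) on log2(FPKM + 1), a scale that understates changes of low transcripts. Testing was limited to the 75716 transcripts (89.2%) that reached 1 FPKM in at least 3 libraries, and 9159 were left out. The 4 group means left 8 residual degrees of freedom, or 7 without kidney 0 h replicate 2. P-values were two-sided and adjusted by Benjamini-Hochberg over all tested transcripts at 0.05. The fit was tested on simulated data. The comparison and its rules were chosen with earlier results of these data known. Named transcripts are, among those called with and without kidney 0 h replicate 2 and without overlap in either tissue, the 2 rising and 2 falling with the largest smaller tissue change. Alternatives covered the pseudocount, filter, scaling, ID number, library weights, blocks, additive terms and each library left out.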

Additional observations from a re-analysis of the deposited data

Results flagged for a closer look

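Of the transcripts with a common change, 32 also had a called difference between the kidney change and the gill change (limma, adjusted p under 0.05), out of 38 such differences among all tested transcripts (0.0502%). The difference was a separate contrast in the same fit. In 22 the kidney change was above the gill change and in 10 below it. The median size of the larger tissue change was 2.95 on the log2 scale and that of the smaller 0.10, and in all 32 the smaller change was under 25% of the larger or of opposite sign. The larger change was that of kidney in 13 and that of gill in 19. Of the 32, 15 moved in the same direction in both tissues, and 27 were called for both the common change and the difference without kidney 0 h replicate 2. These transcripts were chosen for a difference between the 2 changes. A small or opposite smaller change thus follows largely from the choice and is a description only.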

How the results depend on the processing

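The common change was called in 1395 transcripts, and in 1011 to 1613 under the other pseudocounts, filters and scalings, without the trend and with a random block. Outside 1.5 times lay the term for the 3 leading libraries of each ID number (564), library weights (3741), additive tissue and time (808) and a minimum change of 1 (657). Without single libraries it ranged from 487 to 3842. The stricter test of both tissues (8) gave 4 when the pseudocount was 0.1, 3 with the leading-library term, 2 without the trend, 18 with library weights and 1 to 16 without single libraries. As a replicate block the label number left 920 and, for both tissues, 3; the library-name number left 217 and 0 (limma; 1200 with both unadjusted p-values under 0.05); averaging gill and kidney of the same time and number left 138. Fewer residual degrees of freedom, 6, 5 and 4, enter these. The labels do not say that a number marks 1 fish. Deviations of gill and kidney libraries with the same replicate number in the labels correlated at 0.137, 0.111 and 0.109 at 24 h. Each gill library of 24 h correlated best with its own number. The library names give gill and kidney replicate 3 of 24 h different numbers. Deviations from a group mean sum to 0, so a positive value with 1 number lowers those with the others. At 0 h the values were 0.0915, -0.00854 and 0.0345 for replicates 1, 2 and 3. Gill replicates 1 and 3 of 0 h also correlated best with their own number (at most 0.00358 and 0.00547 with others). Gill replicate 2 of 0 h did not (0.0574 with another number). A random block estimated a correlation of 0.0177 (1255 called). Summing per Trinity gene was done within each ID number only, where each gene had 1 row, so no rows were merged. Sums across ID numbers were not tried. The 4 named transcripts kept their direction and call in all 112 alternatives, with adjusted p (limma) of at most 0.0342. They were chosen as called without kidney 0 h replicate 2, which is among these alternatives, and for large changes without overlap. Their choice thus fixed part of this outcome. Depth per library is unknown, so the precision of low FPKM values is too.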
